A study of Mus musculus with 45 samples.

Results

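The 36 mouse genes described here encode enzymes of mitochondrial and peroxisomal fatty acid oxidation, together with 3 of their regulators. They were listed by name, as members of the pathway, with earlier results of these data known. All 36 were found among the 54838 genes of the count table. They were followed across 15 *PyMT*+ cell lines, by the site each line was taken from and by the parental line from which it descends.

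Fatty acids are first activated to acyl-CoA by the ACSL synthetases. Long acyl chains then cross into mitochondria on carnitine, which CPT1 attaches at the outer membrane, SLC25A20 carries across the inner membrane and CPT2 removes again. Inside, acyl-CoA dehydrogenases, a hydratase, a dehydrogenase and a thiolase shorten the chain in a repeated spiral, and the electrons taken by the dehydrogenases pass through the electron transfer flavoprotein to the respiratory chain. Unsaturated chains need the auxiliary enzymes ECI1, ECI2 and DECR1. Very long and branched chains are shortened in peroxisomes. PPARα, PPARδ and the coactivator PGC1α drive transcription of many of these genes. In mammary tumour cells the same acyl-CoA can instead be built into membranes or stored in lipid droplets.

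All lines carry the MMTV-*PyMT* transgene, which expresses polyomavirus middle T antigen from a promoter active in mammary epithelium, and the MMTV-*PyMT* mice of the study are on the FVB/N strain. YEJG and YEJH are the 2 parental lines, labelled as primary tumours of the mammary gland. Transplantation of such lines into the fat pad gave 6 fat-pad tumour lines, and a further 7 lines were grown out of small lung metastases, taken once the fat-pad tumour had been removed by surgery. YEJG has 1 fat-pad line (YEJG-FP) and 2 lung lines (YEJG-M1, YEJG-M2), whereas YEJH has 5 of each (YEJH-FP1 to YEJH-FP5, YEJH-M1 to YEJH-M5), of which YEJH-M3 is labelled as lung metastases and the other lung lines as whole lung. No line was treated, the age of the mice was not given in the sources used here, and each line was grown in culture and sequenced in 3 technical repeats. Each origin is therefore 1 parental line. Origin cannot be told apart from anything else that sets these 2 lines apart.

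Each of the 45 libraries held 9723860 to 16943900 reads counted on genes. Of 10 markers of mammary epithelium, 8 exceeded 10 normalised counts in some line, whereas *Krt5* and *Elf5* stayed at or near 0. Their summed level was 41709.8 to 66848 normalised counts in YEJG-derived lines, 85921 to 109411 in YEJH-derived lines, 108681 in parental YEJG and 93857 in parental YEJH. None of 9 adipocyte markers and none of 7 endothelial markers exceeded 10 normalised counts in any line, with summed levels of at most 8.30 and 12.1. The lung epithelium genes *Sftpc*, *Sftpb*, *Sftpa1* and *Scgb3a2* were at 0 in every line, whereas *Foxj1*, a gene of ciliated cells, read up to 752 in a line with a median of 292. Of 9 leukocyte markers, *Cd68*, *Csf1r* and *S100a8* exceeded 10 normalised counts, and *Cd3e* and *Itgam* were at 0. The library of YEJH-M3 repeat 2 stood apart, with 15.18% of its reads not aligned, against 2.69% to 6.97% in the others. In this library *Acsl4*, *Acadl* and *Ppard* exceeded the other repeats of the line by more than 1.5-fold. Without it the calls of members given below held, and the site contrast compared between origins gave 4 members in place of 3.

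The genes spanned a wide range of levels. Normalised counts were raw counts scaled by library size and by TMM factors, and were averaged over the 3 repeats of a line. For comparison between genes, they were divided by the length of the canonical transcript. *Acsl5*, which activates long-chain fatty acids, had the highest median level over the 15 lines, at 1191 normalised counts per kb. It was followed by *Acsl4*, which prefers arachidonic acid (847.5 per kb), and *Acadvl*, the very-long-chain acyl-CoA dehydrogenase (478 per kb). *Cpt1a*, the CPT1 form of most tissues, ranked 24 of the 36 genes at 93.0 per kb. The lowest 4 ranks were held by the brain CPT1 form *Cpt1c* (2.08 per kb), the muscle form *Cpt1b* (0.639), *Ppargc1a*, which encodes PGC1α (0.264), and *Ppara* (0.0802). With the union of all annotated exons as the length, the first 3 and last 4 ranks were unchanged, whereas *Hadhb* moved from rank 14 to rank 26.

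*Cpt1b* received 0 to 6 reads in each library and *Ppara* 0 to 2. For *Ppara*, 11 reads were counted in all 45 libraries together, all of them in YEJH-derived lines. *Ppargc1a* received 0, 1 and 0 reads in the 3 repeats of YEJG, 8, 1 and 2 in YEJG-FP, 6, 6 and 9 in YEJG-M1 and 3, 9 and 8 in YEJG-M2. In parental YEJH and the lines derived from it, its count was 0 to 6 reads per library. These 3 genes fell below the expression filter in the comparisons of sites and origins, and the remaining 33 genes entered those tests. The annotated exons of *Cpt1b* and *Ppara* also overlap other genes over 89.8% and 50.8% of their canonical exons (*Gm44502* on the same strand and *Cdpf1* on the opposite strand). The library kit does not mark strand, so within shared exons reads of a gene and of a partner on the opposite strand cannot be told apart. The counts also hold a class of ambiguous reads that were given to no gene. How many reads of these overlaps fell there was not tested. Of the well-read members, *Acadvl* shares 44.5% of its canonical exons with *Dvl2*, *Acsl5* 42.8% with *Zdhhc6*, *Etfdh* 25.2% with *Ppid* and *Crat* 14.6% with *Ptpa*, all on the opposite strand. *Hadha* also shares 256 exon bases (6.3% of its canonical exons) with another member, *Hadhb*, on the opposite strand.

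**Figure D1:**
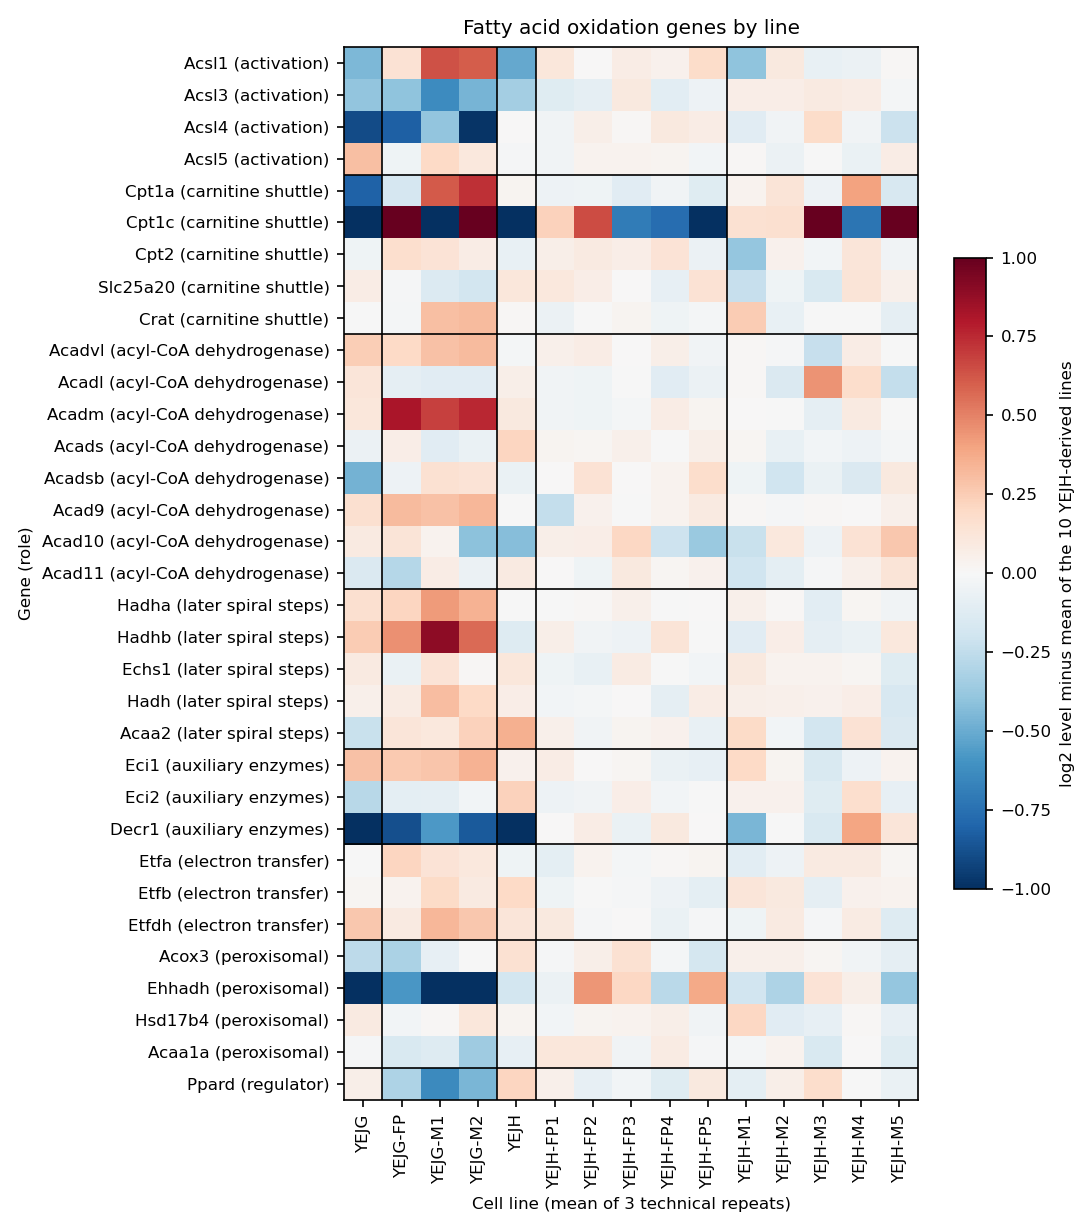
Level of the 33 tested genes in each line (columns, mean of 3 technical repeats), as log2 difference from the mean of the 10 YEJH-derived lines. Colours end at differences of -1 and 1, and rows are ordered by role. The YEJH-derived columns are pale for most genes, whereas *Acadm*, *Hadhb*, *Acsl1* and *Cpt1a* are red and *Acsl4*, *Decr1*, *Ehhadh* and *Ppard* are blue in the 2 YEJG lung lines.

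Next, lung lines were compared with fat-pad lines, which addresses whether cells recovered from micrometastases differ in these genes from cells of the fat-pad tumour. The groups pooled lines of both origins, and origin was not a covariate. None of the 33 genes differed between the 6 fat-pad and 7 lung lines (edgeR quasi-likelihood test on line sums, lowest adjusted p = 0.909). The share of all 15056 genes tested that passed was 0%. With origin as a covariate, 0 members passed, against 3 of all genes (0.0199%). At an unadjusted p under 0.05 there were 784 genes, 2 of them members, and DESeq2 called 22 genes, of which 0 were members. The median log2 fold change of the members was 0.01 against 0.01 over all genes, and 30 of the 33 members changed by less than 0.2 on the log2 scale. The levels of fat-pad and lung lines overlapped for all 33 genes.

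The 2 members with the smallest p were *Acads* and *Cpt1a*. *Acads*, the short-chain acyl-CoA dehydrogenase, reached 693 ± 13.1 normalised counts in fat-pad lines (SD, n = 6 lines) and 654 ± 19.7 in lung lines (SD, n = 7 lines). Its log2 fold change was -0.09 (SE 0.031, adjusted p = 0.909, edgeR). The fat-pad lines lay between 675 and 708 and the lung lines between 624 and 685, so that the groups overlapped narrowly. *Cpt1a* reached 593 ± 22.5 in fat-pad lines (SD, n = 6 lines) and 764 ± 186 in lung lines (SD, n = 7 lines), with a log2 fold change of 0.36 (SE 0.14, adjusted p = 0.909, edgeR). Of the 7 lung lines, YEJG-M1 (965), YEJG-M2 (1044) and YEJH-M4 (832) stood highest. YEJH-M1 (646) and YEJH-M2 (689.8) were also above all fat-pad lines, which reached at most 615, whereas YEJH-M3 and YEJH-M5 were not.

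Within YEJH alone, 5 lung lines and 5 fat-pad lines were compared, so that origin was held fixed. Again 0 of the 33 members passed, against 0.0465% of all genes tested (7 of 15056, edgeR). At an unadjusted p under 0.05 there were 1134 genes, 3 of them members, and DESeq2 called 156 genes and 0 members. *Acads* lay between 675 and 705 in the fat-pad lines and between 642 and 685 in the lung lines (log2 fold change -0.07, SE 0.029, adjusted p = 0.561, edgeR). *Acadsb*, which acts on short branched chains from isoleucine, read 354, 391, 353, 362 and 399.7 in YEJH-FP1 to YEJH-FP5 and 343, 307, 337, 319.7 and 377 in YEJH-M1 to YEJH-M5 (log2 fold change -0.15, SE 0.060, adjusted p = 0.569, edgeR). Both groups overlapped for each gene. The summed level of the 9 leukocyte markers was 58.4 to 90.3 normalised counts in the YEJH fat-pad lines and 97.2 to 129 in the YEJH lung lines, and their part in these values was not tested. Across the 10 YEJH-derived lines the coefficient of variation had a median of 6.49% over the 33 genes and was under 10% for 26 of them.

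By contrast, members differed between origins. Of the 33 genes tested, 17 (51.5%) differed between the 3 YEJG-derived and 10 YEJH-derived lines with site as a covariate, against 42.3% of all genes tested (edgeR, adjusted p under 0.05). Higher levels in YEJG-derived lines were found for 11 members (33.3%, against 20.9% of all genes) and lower levels for 6 (18.2%, against 21.4%). The median log2 fold change was 0.09 for the members and 0.01 for all genes. The members' share was thus near that of all genes, with more of it on the higher side. Line levels of the 2 origins did not overlap for 13 members (39.4%), against 24.8% of all genes, with YEJG-derived lines above in 8 and below in 5. With lung lines alone, 2 YEJG against 5 YEJH lines, 19 members (57.6%) passed, against 45.8% of all genes. Of these, 13 were higher in YEJG lung lines (39.4%, against 22.2%) and 6 lower (18.2%, against 23.7%). The 2 comparisons share their lung lines. RNA of whole cultures was measured, and fewer cells of a type cannot be told apart from less RNA per cell. Summed levels of 8 fibroblast markers were 805 normalised counts in YEJG-M1, 219 in YEJG-M2 and 84.5 in YEJG-FP. In YEJH-derived lines they were 37.4 to 85.3, so that only the 2 YEJG lung lines stood apart. Parental YEJG (27.2) was below parental YEJH (43.8). Of the 8 markers, 4 exceeded 10 normalised counts in some line, with *Lum* and *Thy1* at 0 and *Pdgfra* at 594 in YEJG-M1. The 8 lung epithelium markers, of which only *Foxj1* exceeded 10 normalised counts, summed to 26.2 to 213 in YEJG-derived and 263 to 759 in YEJH-derived lines. The summed mammary epithelium level given above was lower in YEJG-derived than in YEJH-derived lines, whereas parental YEJG was above parental YEJH. Not every marker followed this sum, since *Gata3* was highest in YEJG-M1 (371). The part of each in the differences was not tested.

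**Figure D2:**
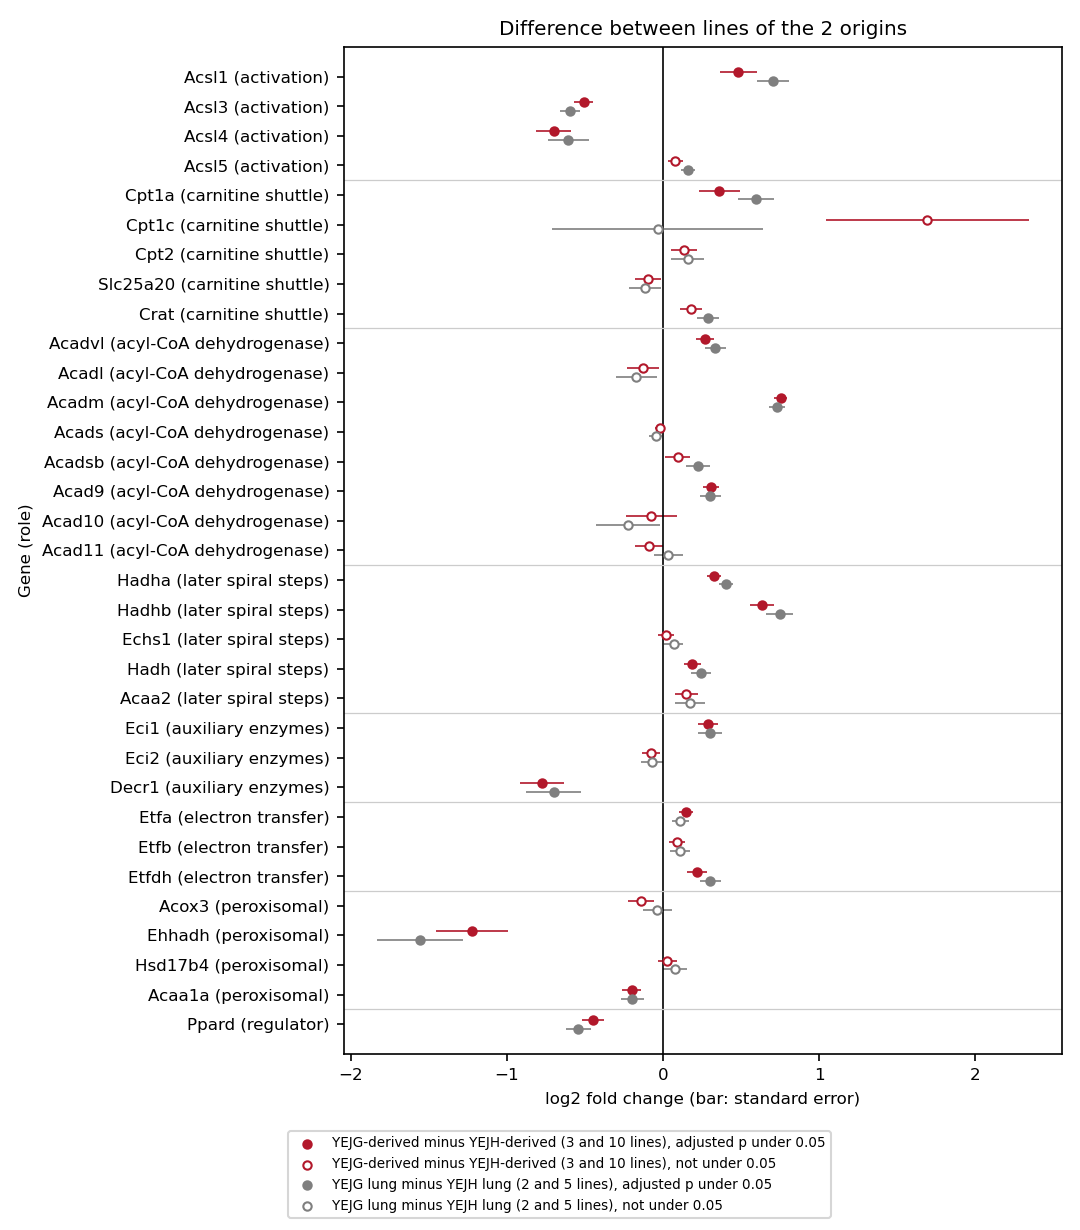
Difference between lines of the 2 origins for the 33 tested genes, as log2 fold change (x axis, bars are standard errors), over all derived lines (red) and over lung lines only (grey). Filled points passed an adjusted p of 0.05. Genes of the same role are adjacent, and *Ehhadh* lies farthest to the left at -1.22 and -1.56.

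The activating enzymes split in direction. *Acsl1*, linked to oxidation in muscle and fat, read 209.5 in YEJG-FP, 295 in YEJG-M1 and 288 in YEJG-M2, and 144 to 216 with a median of 193 in the YEJH-derived lines. It was 1.40-fold higher by origin (log2 0.48, SE 0.12, adjusted p = 0.0056, edgeR), and only the fat-pad line overlapped the YEJH-derived range. *Acsl3*, which supports lipid droplet growth, read 628, 536 and 600.5 in the same 3 YEJG-derived lines, below all YEJH-derived lines at 762 to 888 (median 845). It was 1.42-fold lower in YEJG-derived lines (log2 -0.51, SE 0.060). The parental lines were close in *Acsl3*, at 632 in YEJG and 656 in YEJH, both below all YEJH-derived lines. *Acsl4* read 2662, 3564 and 2373 against 4044 to 5324 (median 4653), which is 1.63-fold lower (log2 -0.70, SE 0.11, adjusted p = 0.00032, edgeR). Parental YEJG was also low in *Acsl4*, at 2528 against 4689.7 in parental YEJH. *Acsl5* did not pass by origin (log2 0.08, adjusted p = 0.214), although it passed among lung lines (log2 0.16, adjusted p = 0.011, edgeR). The latter call was lost without YEJG-M1 (log2 0.11).

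In the carnitine shuttle, *Cpt1a* encodes the step at which malonyl-CoA restrains entry into mitochondria. It read 560.1 in YEJG-FP, 965 in YEJG-M1 and 1044 in YEJG-M2, whereas the YEJH-derived lines lay between 565 and 832 with a median of 611. Both YEJG lung lines were above every other line, while YEJG-FP was below all YEJH-derived lines. The difference by origin was 1.28-fold (log2 0.36, SE 0.13, adjusted p = 0.041, edgeR). This call was lost without YEJG-M1 (adjusted p = 0.146) or YEJG-M2 (adjusted p = 0.208), and the log2 fold change was 0.59 without YEJG-FP. Among lung lines alone *Cpt1a* was 1.51-fold higher in YEJG (log2 0.59, SE 0.11, adjusted p = 0.0011, edgeR). *Crat*, which moves short acyl groups to and from carnitine, passed among lung lines (log2 0.29, adjusted p = 0.0058, edgeR) and not over all derived lines (adjusted p = 0.058). *Cpt2* and *Slc25a20* passed in neither comparison (log2 0.13 and -0.10 by origin).

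*Cpt1c* varied most between single lines. Its 3 repeats held 49, 47 and 42 reads in YEJG-FP, 1, 2 and 1 in YEJG-M1 and 13, 12 and 17 in YEJG-M2, and its count was 1 to 19 reads in libraries of YEJH-derived lines. Normalised counts were 47.8, 1.32 and 13.3 in the 3 YEJG-derived lines and 2.26 to 12.2 in the YEJH-derived lines. The YEJG-derived lines thus span the whole range of derived lines, and the difference by origin did not pass (log2 1.69, SE 0.65, adjusted p = 0.053, edgeR). 

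Of the 8 acyl-CoA dehydrogenase genes, 3 were higher in YEJG-derived lines and 0 lower (37.5% passed, against 42.3% of all genes). *Acadm*, the medium-chain enzyme, gave the smallest p of all members. It read 852 in YEJG-FP, 777 in YEJG-M1 and 818 in YEJG-M2, against 455 to 516 in the YEJH-derived lines with a median of 483. The groups were far apart, and *Acadm* was 1.69-fold higher (log2 0.75, SE 0.042, adjusted p = 7.6e-07, edgeR). Neither parental line showed this level, with 524 in YEJG and 517 in YEJH. *Acadvl* (log2 0.27, SE 0.059) and *Acad9*, which also assembles complex I (log2 0.31, SE 0.052), were also higher, and neither overlapped between origins. *Acadl*, *Acads*, *Acadsb*, *Acad10* and *Acad11* did not pass by origin, with log2 fold changes between -0.13 and 0.09. *Acadsb* passed among lung lines (log2 0.22, adjusted p = 0.032, edgeR), with 393 and 389 in the YEJG lung lines and 307 to 377 in the YEJH lung lines. This call was lost in 8 of 27 alternatives, among them prefix A alone (log2 0.12, adjusted p = 0.445), without YEJG-M1 (adjusted p = 0.151), without YEJG-M2 (adjusted p = 0.073) and without YEJH-M4 (adjusted p = 0.057, edgeR).

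Of the 5 genes of the later spiral steps, 3 were higher and 0 lower (60% passed, against 42.3% of all genes). *Hadha* and *Hadhb* encode the α and β subunits of the mitochondrial trifunctional protein. *Hadha* read 1951, 2263 and 2138 in YEJG-FP, YEJG-M1 and YEJG-M2, above the YEJH-derived range of 1561 to 1747 (median 1693), a 1.25-fold difference (log2 0.33, SE 0.046, adjusted p = 0.00016, edgeR). *Hadhb* read 753, 1022 and 814 against 507 to 601 (median 541), a 1.55-fold difference (log2 0.63, SE 0.079, adjusted p = 7e-05, edgeR). Both subunits stood outside the YEJH-derived range in parental YEJG too, at 1883 and 653. *Hadh*, the short-chain 3-hydroxyacyl-CoA dehydrogenase, was 1.14-fold higher (log2 0.19, adjusted p = 0.016, edgeR), whereas *Echs1* (log2 0.02) and *Acaa2* (log2 0.15) did not pass. The *Hadh* call was lost without YEJG-M1 (log2 0.14, adjusted p = 0.098, edgeR).

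Some *Hadhb* reads may belong elsewhere, since the table also lists the pseudogene *Hadhb-ps*, with 8080 reads in all against 27744 for *Hadhb*. Its mean level was 255 in YEJG-derived and 159.8 in YEJH-derived lines. Library names also carry one of 2 prefixes, here A (22 libraries) and B (23 libraries). The class of reads set aside for low alignment quality held 822828 to 1372504 reads in each library of prefix A and 0 in those of B. Among the members only *Hadhb* (log2 -0.29 for B against A, SE 0.024, adjusted p = 7.3e-13, edgeR) and the peroxisomal thiolase *Acaa1a* (log2 -0.28, SE 0.038, adjusted p = 1.2e-07, edgeR) differed between prefixes, against 15.9% of all genes. Every line has libraries of both prefixes. Within prefix A 15 of 32 members differed by origin, against 39.3% of all genes, and within prefix B 16 of 33, against 40% of all genes. *Hadhb* differed by 0.56 within A and 0.68 within B on the log2 scale. The part of the pseudogene in the difference was not tested.

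*Hadha* and *Hadhb* lie head to head on chromosome 5 (GRCm39, 30323302 to 30360187 on the minus strand and 30359204 to 30389997 on the plus strand), with RefSeq starts 272 bases apart. The stretch before *Hadhb* is shown because it is shared with *Hadha* and both members were higher in YEJG-derived lines. Their levels correlated at 0.92 over the 13 derived lines and at -0.12 within the 10 YEJH-derived lines. Any part of this stretch in their levels was not tested. Those before *Acadm* and *Cpt1a* are shown because the former gave the smallest p by origin and the latter differed by origin in its site contrast. The windows came from RefSeq (GRCm38.p6), where 30 of 36 members matched, and were placed on GRCm39 by exact match. They cover the 250 bases before the RefSeq start, at chr5:30360001-30360250 (plus strand), chr3:153650281-153650530 (minus strand) and chr19:3373051-3373300 (plus strand). The GENCODE genes reach further. *Hadhb* (from 30359204) and *Cpt1a* (from 3371853) begin before their windows there, and *Acadm* (to 153650317) reaches into its window. Capitals mark, for *Hadhb*, the 228 bases that also lie in the upstream window of *Hadha*, and, for *Acadm* and *Cpt1a*, a nuclear receptor half-site (AGGTCA on the opposite strand).
Hadhb: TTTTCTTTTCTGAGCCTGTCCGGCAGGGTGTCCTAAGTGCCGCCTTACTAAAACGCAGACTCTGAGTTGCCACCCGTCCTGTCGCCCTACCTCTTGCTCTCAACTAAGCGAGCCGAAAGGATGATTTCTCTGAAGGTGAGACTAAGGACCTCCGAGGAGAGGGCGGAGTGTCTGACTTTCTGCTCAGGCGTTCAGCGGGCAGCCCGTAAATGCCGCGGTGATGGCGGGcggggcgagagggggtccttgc
Acadm: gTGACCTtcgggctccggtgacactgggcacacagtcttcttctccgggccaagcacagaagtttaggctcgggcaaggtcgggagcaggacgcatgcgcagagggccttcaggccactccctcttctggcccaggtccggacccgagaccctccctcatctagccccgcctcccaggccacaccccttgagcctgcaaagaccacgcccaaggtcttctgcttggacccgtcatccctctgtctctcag
Cpt1a: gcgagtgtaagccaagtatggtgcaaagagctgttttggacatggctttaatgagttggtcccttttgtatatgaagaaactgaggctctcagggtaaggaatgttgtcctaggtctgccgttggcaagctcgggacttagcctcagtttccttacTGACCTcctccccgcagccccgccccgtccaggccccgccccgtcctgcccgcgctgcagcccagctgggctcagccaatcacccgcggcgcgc
Over windows of 300 bases (250 before and 50 after the start, both strands), the half-site AGGTCA was found in 5 of 31 member windows (16.1%, *Acadm*, *Acadvl*, *Cpt1a*, *Cpt1c* and *Echs1*) and in 16.3% of all 32851 windows. The repeat of this half-site with 1 base between, the element of PPAR and RXR known as DR1, was in 0 member windows and 0.0396% of all. Only exact matches were counted, so imperfect elements and those outside the windows were not searched. The extended half-site of ERR (AAGGTCA preceded by T and any base) was in 0 member windows and 1.28% of all, and overlaps the plain half-site. The half-site was added to the search after the others had been seen.

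Among the auxiliary enzymes, *Eci1* was 1.22-fold higher in YEJG-derived lines (log2 0.29, SE 0.063, adjusted p = 0.0027, edgeR) and *Decr1*, the reductase that polyunsaturated chains require, was 1.71-fold lower (log2 -0.78, SE 0.14, adjusted p = 0.00082, edgeR). *Decr1* read 147, 182 and 151 in the 3 YEJG-derived lines and 196 to 355 with a median of 271 in the YEJH-derived lines. The groups did not overlap, and *Eci2* did not pass (log2 -0.08). For electron transfer, *Etfa* (log2 0.15, adjusted p = 0.021, edgeR) and *Etfdh*, which hands electrons to ubiquinone (log2 0.22, adjusted p = 0.014, edgeR), were higher by 1.11-fold and 1.16-fold. The *Etfa* call was lost in 5 of 28 alternatives, among them prefix A alone (adjusted p = 0.139), prefix B alone (adjusted p = 0.092) and the set without YEJG-FP (adjusted p = 0.138, edgeR). The *Etfdh* call was lost without YEJG-M1 (adjusted p = 0.083, edgeR). *Etfb* did not pass (log2 0.09).

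Among the 4 peroxisomal genes 0 were higher and 2 lower (50% passed, against 42.3% of all genes). *Ehhadh*, the peroxisomal bifunctional enzyme, read 11.8, 6.43 and 4.38 in YEJG-FP, YEJG-M1 and YEJG-M2, below the YEJH-derived lines at 13.6 to 24.1, and was 2.34-fold lower (log2 -1.22, SE 0.23, adjusted p = 0.0011, edgeR). Its parental lines differed in the same direction, at 1.46 in YEJG and 15.7 in YEJH. *Acaa1a* was 1.15-fold lower (log2 -0.20, SE 0.060, adjusted p = 0.016, edgeR), a call that was lost within prefix B (adjusted p = 0.118) and without YEJG-M2 (adjusted p = 0.116). *Acox3* (log2 -0.14) and *Hsd17b4* (log2 0.03) did not pass. *Ppard*, the only regulator with enough reads to test, read 425 in YEJG-FP, 339 in YEJG-M1 and 384 in YEJG-M2. The YEJH-derived lines lay between 485 and 596 with a median of 521, so that *Ppard* was 1.37-fold lower in YEJG-derived lines (log2 -0.45, SE 0.072, adjusted p = 0.00034, edgeR). Without the library of YEJH-M3 repeat 2, YEJH-M3 fell to 405, inside the YEJG-derived range, and the log2 fold change was -0.39 (adjusted p = 0.0023, edgeR).

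**Figure D3:**
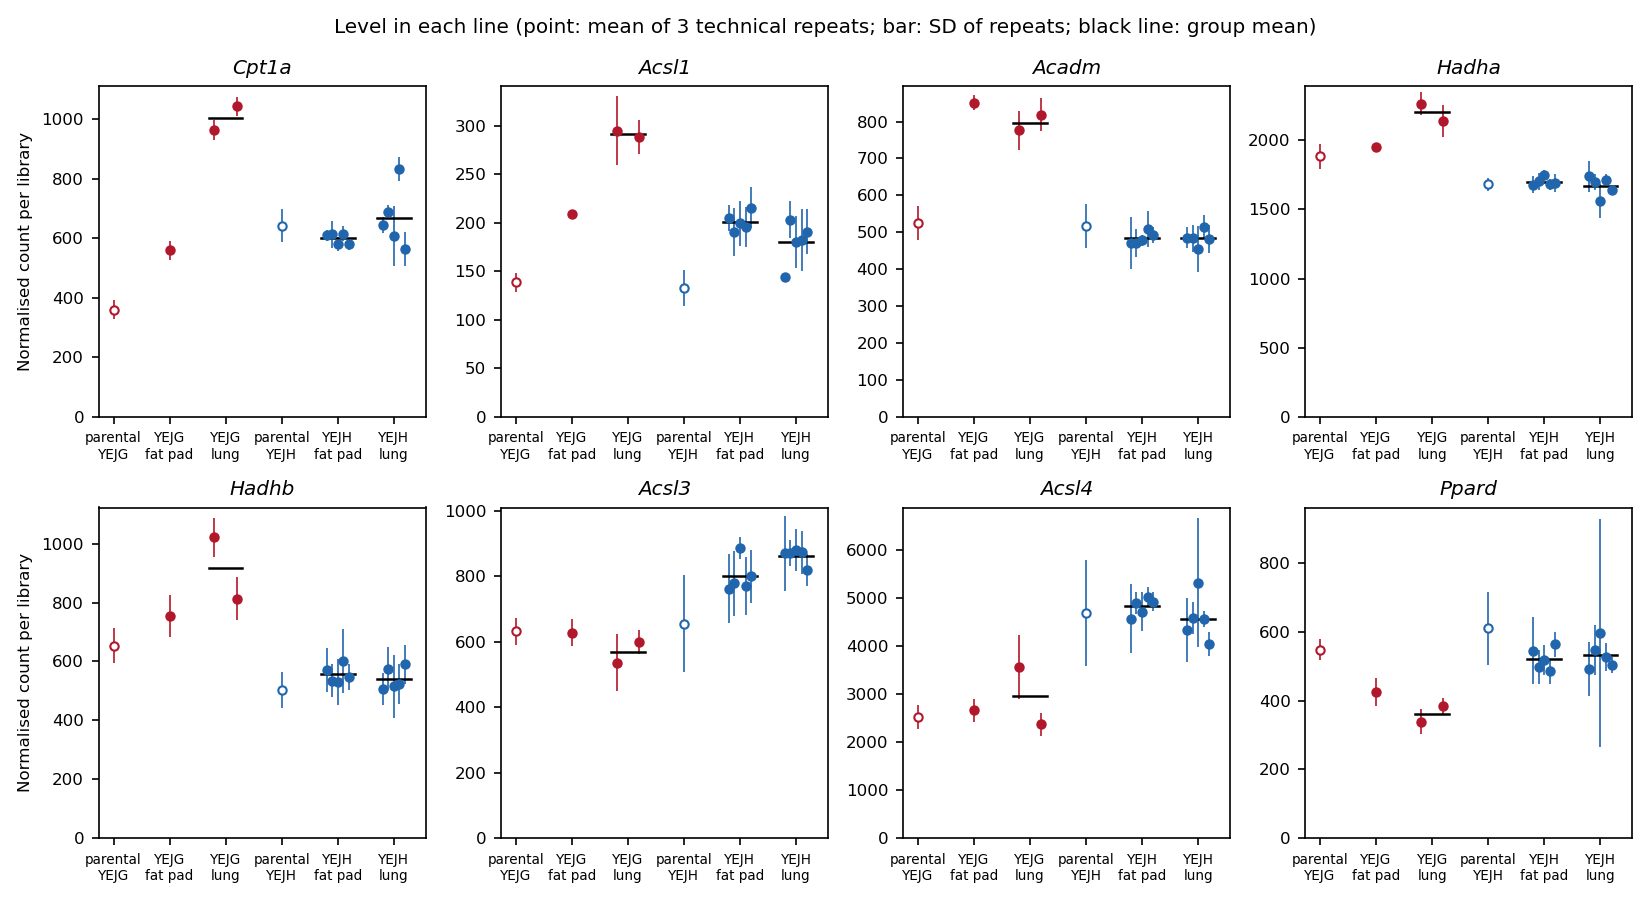
Normalised counts (y axis, from 0) of 8 genes in each line, grouped by origin and site. Points are line means, bars the SD of 3 technical repeats and black lines group means. The 3 filled red points (YEJG-derived) lie apart from the 10 filled blue points (YEJH-derived) for *Acadm*, *Hadha*, *Hadhb*, *Acsl3*, *Acsl4* and *Ppard*, whereas for *Cpt1a* and *Acsl1* only the 2 YEJG lung lines do.

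The lung against fat-pad contrast itself was then compared between origins. Of the 33 members, 3 (9.09%) differed, against 15.5% of all genes. YEJG contributed a single fat-pad line, so the spread of its fat-pad side could not be measured. The members' share was below that of all genes. *Cpt1a* was higher in both YEJG lung lines (965 and 1044) than in YEJG-FP (560.1), whereas YEJH lung lines (646, 689.8, 607, 832 and 565) overlapped YEJH fat-pad lines (580.2 to 615). The difference of the contrasts was 0.71 on the log2 scale (SE 0.20, adjusted p = 0.032, edgeR). *Acsl1* read 295 and 288 in the YEJG lung lines and 209.5 in YEJG-FP, against 144, 203, 179.9, 182 and 191 in YEJH lung and 190.1 to 216 in YEJH fat-pad lines (0.65 on the log2 scale, SE 0.18, adjusted p = 0.027, edgeR). For *Cpt1c* the difference was negative (-3.39 on the log2 scale, SE 1.0, adjusted p = 0.039, edgeR), and YEJG-FP held the highest count of any line. All 3 calls were lost without YEJG-M1 (adjusted p = 0.052 for *Cpt1a*, 0.068 for *Acsl1* and 0.089 for *Cpt1c*), and without YEJG-M2 the *Cpt1c* difference was -5.80. The *Cpt1a* call was also lost without YEJG-M2 (adjusted p = 0.0735), within prefix B (adjusted p = 0.103) and without YEJH-FP1, YEJH-FP2 or YEJH-FP4 (adjusted p of 0.052 to 0.054, edgeR). The *Cpt1c* call was lost in 9 of 25 alternatives, among them without YEJH-FP1, YEJH-FP3, YEJH-FP4, YEJH-FP5, YEJH-M3 or YEJH-M5 (adjusted p of 0.053 to 0.068, edgeR).

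Finally, the 13 derived lines were compared with their 2 parental lines, with origin as a covariate, which sets each line against the line it came from. Of 35 members tested, 3 (8.57%) passed, against 7.77% of 16361 genes. The share was near that of all genes. Of the 3, 2 rose in derived lines (5.71%, against 3.55%) and 1 fell (2.86%, against 4.23%). *Decr1* rose more than the other member. Its 3 repeats held 1, 4 and 5 reads in YEJG and 50, 69 and 82 in YEJH, against 119 to 401 reads in libraries of derived lines, so that every derived library exceeded every parental one. The change was 6.79-fold (log2 2.76, SE 0.45, adjusted p = 0.0035, edgeR), and the log2 fold change was 5.39 without parental YEJH. The mean of YEJG-derived lines was 43.6 times the YEJG level and that of YEJH-derived lines 3.94 times the YEJH level.

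*Acsl1* rose 1.62-fold in derived lines (log2 0.70, SE 0.15, adjusted p = 0.014, edgeR). It read 139 in parental YEJG and 133 in parental YEJH, below all 13 derived lines, although YEJH-M1 (144) was close. *Ppard* fell 1.28-fold (log2 -0.35, SE 0.086, adjusted p = 0.023, edgeR), from 548 in YEJG and 610.4 in YEJH. Without parental YEJG the *Acsl1* call (adjusted p = 0.278) and the *Ppard* call (log2 -0.20, adjusted p = 0.560) were lost, and without parental YEJH the *Ppard* log2 fold change was -0.53. *Cpt1a* did not pass (log2 0.47, SE 0.24, adjusted p = 0.264, edgeR). It read 360.2 in parental YEJG, the lowest of all 15 lines, and 642 in parental YEJH, and the mean of YEJG-derived lines was 2.38 times the YEJG level. *Cpt1c* held 1, 1 and 0 reads in YEJG and 0, 1 and 0 in YEJH, against 1 to 49 in libraries of derived lines, and did not pass (adjusted p = 0.057, edgeR). *Cpt1b* (log2 -0.10, adjusted p = 0.936) and *Ppargc1a* (log2 1.31, adjusted p = 0.365), which the filter kept in this comparison, did not pass either. Between the 2 parental lines themselves, with 1 line each and no test, 28 of the 33 members lay within 1.5-fold of each other.

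**Figure D4:**
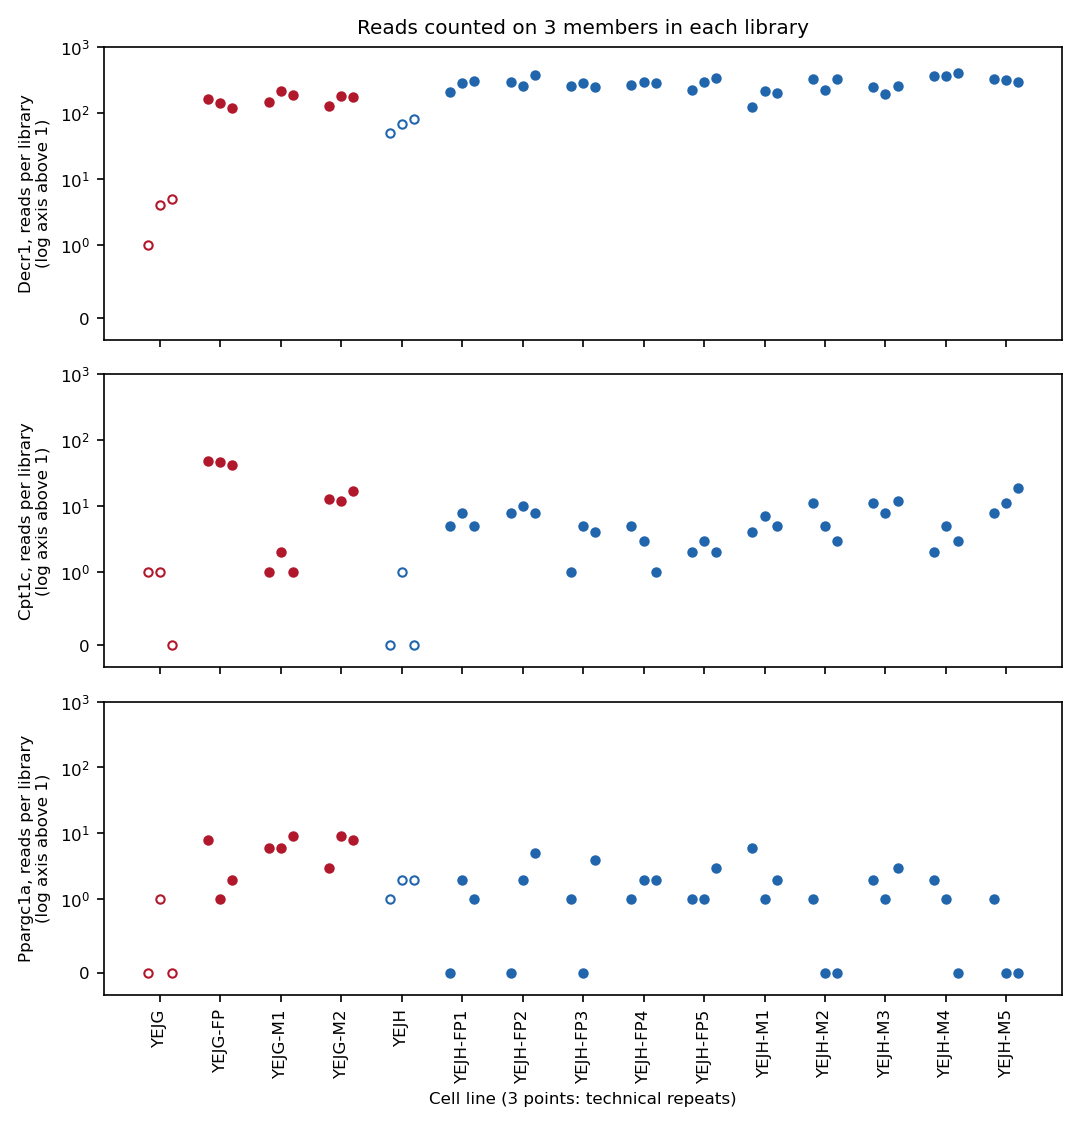
Raw reads per library (y axis, linear up to 1 and log above) of *Decr1*, *Cpt1c* and *Ppargc1a* in the 3 technical repeats of each line. Open points are parental lines, red is YEJG and blue is YEJH. *Decr1* is at 1 to 5 reads in parental YEJG and at 119 or more in every derived library, and the *Cpt1c* counts of 42 to 49 belong to YEJG-FP alone.

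Other genes of lipid and energy metabolism were counted by list to place the members. Of all genes tested, 42.3% passed by origin, 20.9% higher and 21.4% lower. The shares by list were 61.5% (other mitochondrial), 50% (other peroxisomal), 41.7% (uptake and activation), 61.5% (lipid droplet and lipolysis) and 38.9% (regulators and targets). By origin, the other genes of mitochondrial acyl-CoA oxidation were mostly higher among those that passed (12 higher and 4 lower of 26), with *Auh* (log2 0.48) and *Hibch* (log2 0.35), both of branched-chain amino acid breakdown, higher and *Decr2*, a peroxisomal relative of *Decr1*, lower (log2 -0.35). The other peroxisomal genes were mixed (9 higher and 6 lower of 30), and *Acox2*, which acts on branched chains, was lower (log2 -0.77), while *Amacr* was higher (log2 1.21). Uptake and activation genes passed in 1 and 4 of 12, with the acyl-CoA binding protein *Dbi* lower (log2 -0.46). Of the lipid droplet and lipolysis genes, 1 was higher and 7 of 13 lower, among them the hormone-sensitive lipase *Lipe* (log2 -1.20) and the triglyceride lipase *Pnpla2* (log2 -0.53). Regulators and targets gave 5 higher and 2 lower of 18, with *Pdk2*, a kinase that blocks pyruvate oxidation, at log2 1.04 and the corepressor *Nrip1* at log2 -0.72.

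The citric acid cycle, which takes up the acetyl-CoA made by oxidation, had 15 genes higher and 0 lower of 20, with *Sdhd* at log2 0.34. Glycolysis had 13 higher and 2 lower of 17, with *Ldha* at log2 0.38 and *Aldoc* at log2 -1.33. Fatty acid and cholesterol synthesis had 0 higher and 26 lower of 29, with a median log2 fold change of -0.74. In that list *Insig1*, which holds back sterol synthesis, was at log2 -1.23 and the elongase *Elovl6* at log2 -0.53. The shares passing by origin were 75% (citric acid cycle), 88.2% (glycolysis) and 89.7% (synthesis), against 42.3% of all genes. Between lung and fat-pad lines, 0 genes of any of the lists passed, against 0% of all genes (edgeR).

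**Figure D5:**
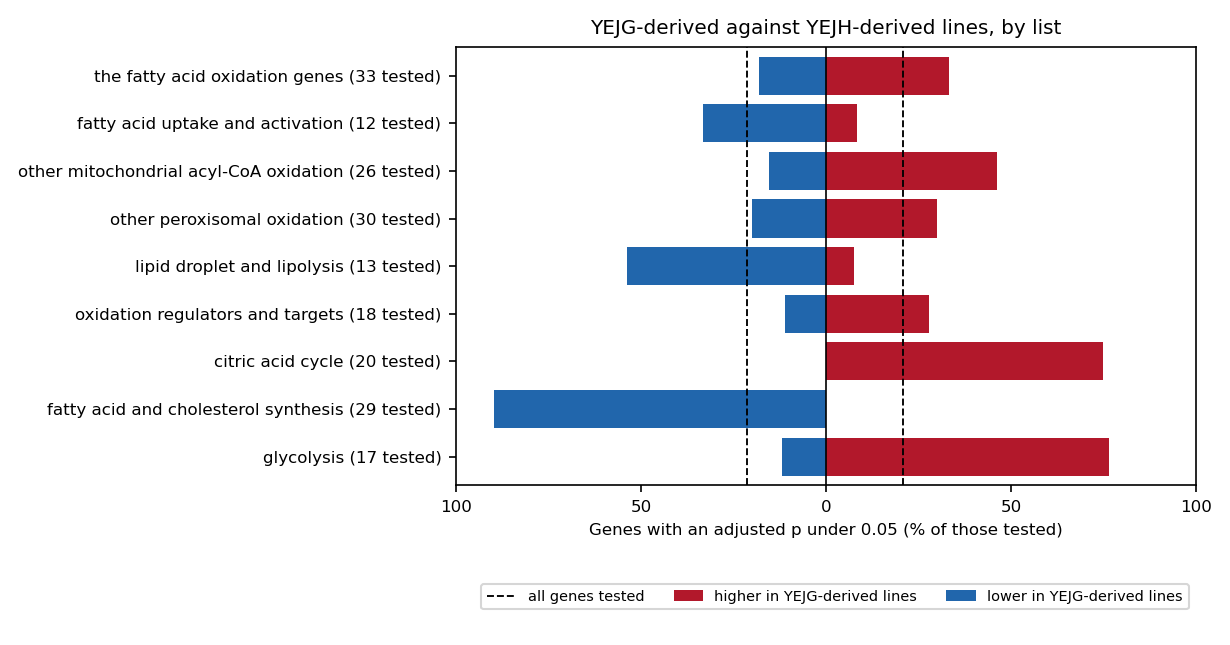
Share of tested genes in each list (x axis, in percent) that were higher (red, right) or lower (blue, left) in YEJG-derived than in YEJH-derived lines at an adjusted p under 0.05. Dashed lines are the shares over all genes tested, 20.9% higher and 21.4% lower. The fatty acid oxidation genes reach 33.3% and 18.2%, whereas synthesis genes are lower in 26 of 29.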

How the data were processed

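RNA of 15 *PyMT*+ cell lines was sequenced after polyA selection with a kit that does not mark strand (NextSeq500). The deposited values are counts, whole numbers of reads per gene in 45 libraries, which the authors did not normalise. Per the submitters' processing notes, FastQC, HISAT2, SAMtools 1.2 and HTSeq were used, and the build listed there is GRCh38 although the gene identifiers are of mouse. Other versions are not given in the sources used here. Of the identifiers, 92.6% matched GENCODE M39 (GRCm39), which gave names and positions. The 5 rows that name no gene held 31.6% to 43.3% of reads and were left out, and 0 columns could not be matched to a sample. The library of YEJG-M1 repeat 1 has a library name that carries another line, and its title decided its place.

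Counts of the 3 technical repeats of a line were summed, so that the line was the replicate, and p-values measure the spread between lines. Nothing in the labels says which lines came from the same mouse. The paper describes the lung lines as isogenic cells, grown from micrometastases that arose after the tumour was removed. A fat-pad and a lung line may therefore share a mouse, and the main tests did not model such pairs. Tests were edgeR 4.0.16 quasi-likelihood (R 4.3.3) with TMM factors, the expression filter of edgeR and Benjamini-Hochberg adjustment over all genes tested, at a threshold of 0.05. Standard errors are the log2 fold change divided by the square root of F. The number of lines limits the precision. Counts of 15056 genes were simulated, with 67 genes changed 1.5-fold, 67 changed 2-fold and 66 changed 4-fold. For the comparison by origin, 50.7%, 85.1% and 92.4% of these were called, with 11 calls among unchanged genes. For lung against fat-pad lines the rates were 52.2%, 76.1% and 92.4%, with 15 calls among unchanged genes. The changed genes were far fewer than the 42.3% of genes called by origin in the data, so these rates need not hold there.

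The members and gene lists were chosen with earlier results of these data known. Values by line are given for *Cpt1a*, *Cpt1b*, *Cpt1c*, *Ppara* and *Ppargc1a*, and for up to 6 members past the threshold in each comparison, or the 2 with the smallest p where none passed. The line values of *Ehhadh* and some values of other members lie outside this rule and were chosen after they were seen. For each list, up to 3 genes with the smallest p by origin were named. Some of them are not reported here. Alternatives varied normalisation, filter, test (DESeq2 1.42.0, or limma 3.58.1 with libraries kept apart), covariates, prefix and the lines or repeats included. The omission of YEJH-M3 repeat 2, the exon-union length and the single half-site were added after seeing the data. Sequences were handled in Python 3.11.15 and plots drawn with matplotlib 3.10.9.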

Additional observations from a re-analysis of the deposited data

Results flagged for a closer look

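*Acsl3* in YEJH-M5 was at 819 normalised counts, below the other 4 YEJH lung lines, whose nearest was at 870.0, and this gap was 0.82 of the range of the group. It is 1 sample far from the others among 30 groups of lines examined, where chance gives 1.5.

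For 3 genes the difference between lung and fat-pad lines differed between the origins by a test of that difference (edgeR interaction term, YEJG minus YEJH, log2 scale). It was 0.65 for *Acsl1* (SE 0.18, adjusted p = 0.027), 0.71 for *Cpt1a* (SE 0.20, adjusted p = 0.032) and -3.39 for *Cpt1c* (SE 1.0, adjusted p = 0.039). Both YEJG lung lines were above YEJG-FP in *Acsl1* and *Cpt1a* and below it in *Cpt1c*. The YEJG contrast rests on 1 fat-pad line, and all 3 calls were lost without YEJG-M1. The *Acsl1* call was lost in 3 of 26 alternatives, the *Cpt1a* call in 6 of 26 and the *Cpt1c* call in 9 of 25.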

How the results depend on the processing

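Lung against fat-pad lines gave 0 called members in each alternative run, over all origins and within YEJH. By origin the count of 17 members ranged from 15 to 21 over other settings and from 13 to 19 with 1 line or repeat left out. Among lung lines the count of 19 ranged from 18 to 20 and from 15 to 19. Of the 17 calls by origin, 12 held in every alternative run, and *Cpt1a* was lost in 10 of 28. Of the 19 calls among lung lines, 13 held in every alternative run, and *Acaa1a* was lost in 16 of 27. Of the 3 calls in the site contrast between origins and the 3 against parental lines, 0 and 0 held throughout. No direction was reversed. The 3 members that differed in the site contrast between origins (15.5% of all genes) became 6 with DESeq2 (19.8%), 7 in limma on separate libraries (22.6%), 7 when the technical repeat entered as replicate block (22.7%) and 7 when the prefix did (23%), and 0 (without YEJG-M1) to 5 with 1 line or repeat left out. Without YEJG-FP this difference could not be fitted. The 3 members that differed between derived and parental lines (7.77% of all genes) became 5 with libraries kept apart (16.5%), 6 with the replicate block (16.8%), 6 with the prefix as covariate (16.4%), 1 with YEJH lines only (3.53%) and 0 without the origin covariate (1.23%), and 1 (without YEJG, 0.826%) to 8 (without YEJH, 13.4%) with 1 line or repeat left out. The cause was not tested.

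Some YEJH fat-pad and lung lines share a line number. Same-numbered lines correlated at -0.05, -0.17, 0.04, -0.20 and 0.05 in their deviations from group means. These values cannot tell whether same-numbered lines came from the same mouse. With the line number as replicate block, 0 members passed in either site comparison, with 878 and 1056 of all genes at an unadjusted p under 0.05 and 0 adjusted. Low counts limit *Cpt1b*, *Ppara*, *Ppargc1a* and *Cpt1c*.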
